A study of Arabidopsis thaliana with 12 samples.

Results

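Stress granules are cytoplasmic bodies in which untranslated mRNAs gather with RNA-binding proteins when translation initiation stalls. In animal cells, G3BP-type proteins help to nucleate them, together with proteins of the TIA-1 type that carry several RNA recognition motifs and with poly(A)-binding proteins. The plant relatives of TIA-1 are the RBP47 and UBP1 families, and RBP47B is a widely used marker of plant stress granules. The 10 genes described here encode such partners other than the G3BP proteins. They were chosen by their AGI identifiers, as RBP47A (AT1G49600) and RBP47B (AT3G19130), UBP1A (AT1G54080), UBP1B (AT1G17370) and UBP1C (AT3G14100), the poly(A)-binding proteins PAB2 (AT4G34110), PAB4 (AT2G23350) and PAB8 (AT1G49760), and the Tudor staphylococcal nucleases TSN1 (AT5G07350) and TSN2 (AT5G61780). All 10 were found among the 27371 genes listed and all 10 passed the filter on low values, so that none is left out below.

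The study sequenced mRNA of whole Arabidopsis thaliana seedlings of ecotype Columbia-0, grown for 14 d on agar medium, in 4 groups of 3 libraries. Seedlings labelled WT or Atg3bp1 received either mock or hrcC-, which stands for 24 h of exposure to Pst DC3000 hrcC-, a Pseudomonas syringae strain without a working type III secretion system. The methods name a homozygous T-DNA insertion line, Atg3bp1-1, as the mutant, spraying as the way of exposure and independent biological replicates. Whole seedlings mix shoot and root, so that fewer cells of a type and less RNA per cell cannot be told apart. Expression is given as FPKM, fragment numbers corrected for the length of the transcript and the size of the library.

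The check of the targeted gene went against the labels. AtG3BP1 (AT5G48650) stood at 11.4 to 16.6 FPKM in the libraries labelled Atg3bp1 mock and 12.5 to 18.4 in those labelled Atg3bp1 hrcC-, against 0.0179 to 0.354 in WT mock and 0.311 to 0.426 in WT hrcC-. Every genotype below is therefore a label, and a direction between genotypes is one between labels. Before testing, the libraries were rescaled to a common upper quartile. The scaling factors lay between 0.866 and 1.20. In 9 libraries they were at most 1.01 and in 3 at least 1.11, namely WT mock 2, WT mock 3 and WT hrcC- 1. Shoot and root markers were detected in every library. The summed level of the 4 shoot markers was 10347 to 20403 rescaled FPKM in WT mock, 11846 to 14636 in Atg3bp1 mock, 8723 to 11831 in WT hrcC- and 9047 to 11049 in Atg3bp1 hrcC-. That of the 4 root markers was 15.4 to 20.8, 18.3 to 38.7, 10.2 to 22.3 and 13.0 to 19.8 in the same order. Each sum mostly follows 1 gene. In WT mock the Rubisco gene RBCS1A alone stood at 8388 to 17887 rescaled FPKM, and the endodermal gene CASP1 at 7.77 to 12.8.

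Some of the paralogs share stretches of identical sequence, so their coding sequences were checked for places where a read could match both. The stretches below show, for 1 pair of each family, the longest run of identical bases between the coding sequences in the RefSeq annotation of TAIR10.1. Capitals mark the identical run and lower case the 15 bases on either side, and the coordinates cover both. Between RBP47A (gene at chr1:18356799-18360447, minus strand) and RBP47B (chr3:6611182-6614107, minus strand) the run was 63 bases long and lay within an exon, at chr1:18359728-18359820 and chr3:6613434-6613526.
RBP47A: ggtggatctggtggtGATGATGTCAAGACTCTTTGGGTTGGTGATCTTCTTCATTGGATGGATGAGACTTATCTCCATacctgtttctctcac
RBP47B: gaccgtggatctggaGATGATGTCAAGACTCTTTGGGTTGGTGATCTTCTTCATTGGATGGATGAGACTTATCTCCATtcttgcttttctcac
Between UBP1A (chr1:20183545-20187096, minus strand) and UBP1C (chr3:4672916-4676162, plus strand) it was 60 bases long and crossed an intron in both genes, at chr1:20185929-20186122 and chr3:4673739-4674016.
UBP1A: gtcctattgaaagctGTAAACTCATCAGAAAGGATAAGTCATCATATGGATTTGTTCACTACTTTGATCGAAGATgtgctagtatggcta
UBP1C: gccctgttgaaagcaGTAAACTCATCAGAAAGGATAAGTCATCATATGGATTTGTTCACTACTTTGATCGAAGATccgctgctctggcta
Between PAB2 (chr4:16336291-16340314, plus strand) and PAB4 (chr2:9942915-9946347, plus strand) the longest run had no more than 23 bases, at chr4:16337974-16338026 and chr2:9944357-9944409.
PAB2: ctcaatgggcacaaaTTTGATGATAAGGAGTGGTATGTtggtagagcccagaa
PAB4: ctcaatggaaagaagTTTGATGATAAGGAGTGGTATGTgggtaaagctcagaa
Between TSN1 (chr5:2319994-2325535, minus strand) and TSN2 (chr5:24821203-24826969, plus strand) it had 64 bases and crossed an intron in both genes, at chr5:2323939-2324111 and chr5:24822750-24823128.
TSN1: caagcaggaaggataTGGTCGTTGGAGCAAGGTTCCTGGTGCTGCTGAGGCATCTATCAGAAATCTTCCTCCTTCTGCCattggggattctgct
TSN2: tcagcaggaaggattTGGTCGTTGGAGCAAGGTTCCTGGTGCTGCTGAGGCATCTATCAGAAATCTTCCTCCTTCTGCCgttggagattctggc
UBP1B lies at chr1:5951542-5955143, minus strand, and PAB8 at chr1:18416474-18420111, plus strand. The coding sequences were 80.4% identical in aligned bases for RBP47A and RBP47B, 86.3% for UBP1A and UBP1C and 85.2% for TSN1 and TSN2. The 3 poly(A)-binding proteins stood further apart, at 68.8% to 73.6%, as did UBP1B, at 77.3% with UBP1A and 78.04% with UBP1C. The reads had been cut to 100 bases and aligned with up to 2 mismatches and 1 placement. In each of the 8 pairs of members compared, 0 of the 100-base windows of the first coding sequence matched the second within 2 mismatches. Untranslated regions were not compared.

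The poly(A)-binding proteins were the most abundant of the 10 genes. They coat the poly(A) tail and link it to the initiation factors at the cap. Over the 12 libraries PAB2 averaged 115 ± 28.9 FPKM (SD, n = 12), PAB4 32.2 ± 10.03 FPKM and PAB8 21.8 ± 4.42 FPKM. RBP47A followed at 21.5 ± 4.76 FPKM, UBP1A at 19.5 ± 4.61 FPKM, TSN1 at 15.3 ± 2.75 FPKM and UBP1C at 14.8 ± 5.03 FPKM. The lowest were UBP1B at 11.05 ± 2.97 FPKM, RBP47B at 10.9 ± 2.91 FPKM and TSN2 at 7.51 ± 1.35 FPKM. FPKM are per length, so these levels can be set side by side. The step from PAB2 to PAB4 was larger than the spread of either, and the lowest library of PAB2, at 92.7 FPKM, lay above the highest of PAB4, at 53.9. Of the 8 other steps between neighbours in this order, 6 were smaller than the larger SD of the 2 genes. The exceptions were the steps from PAB4 to PAB8 and from RBP47B to TSN2, both just above that SD. The other poly(A)-binding protein genes, PAB1, PAB3, PAB5, PAB6 and PAB7, were all under 0.5 FPKM in every group mean, and 0 of these 5 passed the filter.

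The SD within groups, on the log2 scale, was below the median of all tested genes, 0.28, for 9 of the 10. It ran from 0.15 in RBP47A to 0.28 in TSN2, the exception. The mean levels of the 10 lay at percentiles 58.5 to 97.0 of the tested genes, and the SD was not compared with genes of like level. Single groups were wide, as UBP1C in WT hrcC- at 29.1, 13.5 and 15.5 FPKM. The spread moved in part with the 3 libraries of high scaling factors. Within their groups these stood higher than the others by 0.44 on the log2 scale for PAB2, 0.40 for UBP1C and 0.34 for UBP1A. They were also higher for RBP47B, at 0.27, and RBP47A, at 0.06. They stood lower for TSN2 at -0.51, PAB4 at -0.30, UBP1B at -0.28, PAB8 at -0.27 and TSN1 at -0.19. After rescaling, WT hrcC- 1 stood at 141 for PAB2, against 103 and 95.9 in the other libraries of its group. For UBP1A it stood at 23.9 against 16.0 and 16.0, and for UBP1C at 24.3 against 14.2 and 15.4. The plot of FPKM as deposited does not show this pattern by itself. There WT hrcC- 1 is the highest library of its group for PAB4 and UBP1B too, and for every member but TSN2.

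**Figure D1:**
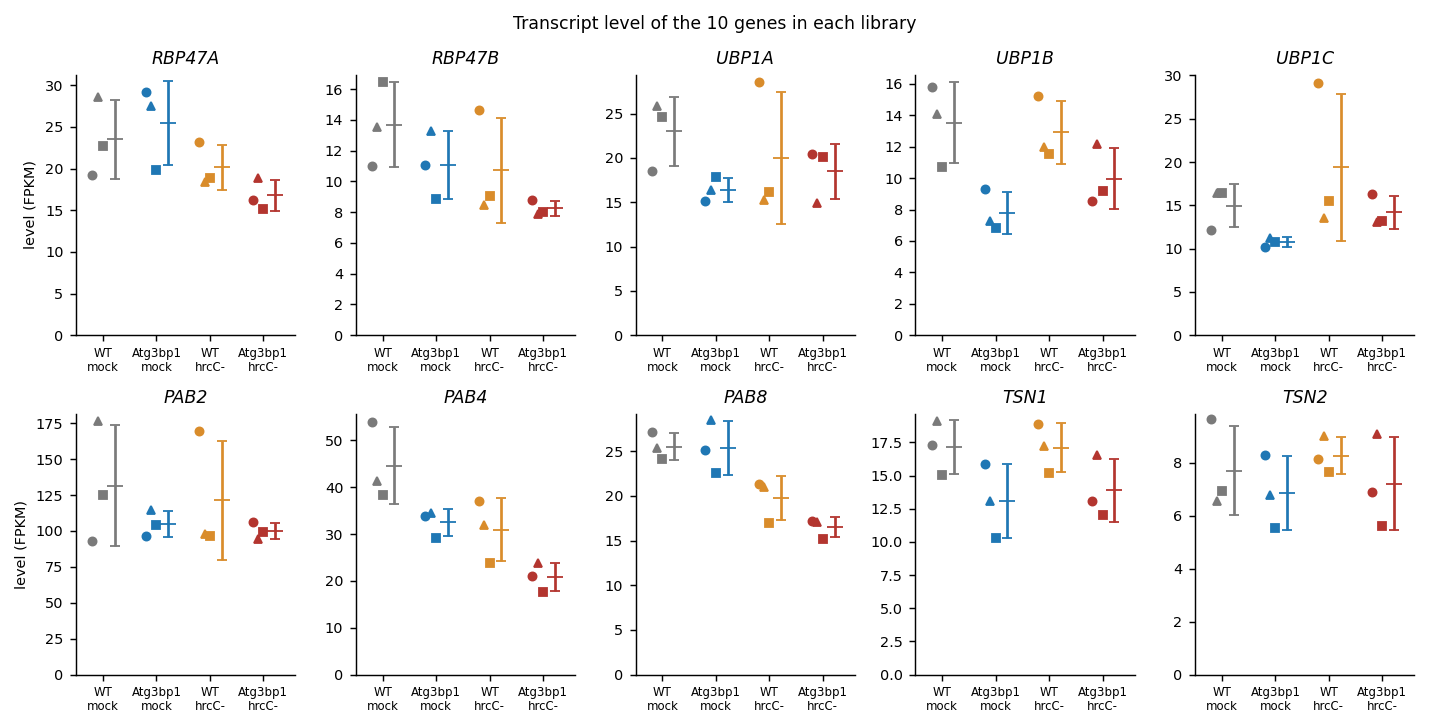
FPKM of each of the 10 genes (vertical axes, from 0) in the 4 groups (horizontal axes); circles, triangles and squares are replicates 1, 2 and 3, and the bars give the mean ± SD of 3 libraries. PAB2 is the most abundant and TSN2 the least. The means in FPKM as deposited sit lower after hrcC- under both labels for PAB2, PAB4, PAB8, RBP47A and RBP47B. WT hrcC- 1, the library with the largest scaling factor, is the highest of its group for every gene but TSN2.

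The first comparison asked whether Pst hrcC- changed the 10 genes under the label WT. None was called. With limma, 0 of 10 passed an adjusted p of 0.05 in either direction, beside 3.51% of all tested genes called higher and 0.711% called lower. At an unadjusted p of 0.05, PAB4 was lower and no member was higher. The share of all tested genes at an unadjusted p of 0.05 was not counted, here or below. The members' median log2 fold change was -0.15 and that of all tested genes -0.06. Fold changes are on the log2 scale of rescaled FPKM plus 1, and every 95% interval lay within a 2-fold change for all 10 members, as for 73.6% of all tested genes.

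PAB4 stood at 53.9, 41.4 and 38.4 FPKM in the libraries labelled WT mock, at 33.8, 34.5 and 29.2 in Atg3bp1 mock, at 37.1, 31.9 and 23.8 in WT hrcC- and at 21.1, 23.7 and 17.7 in Atg3bp1 hrcC-. The 3 WT hrcC- libraries were all below the 3 WT mock libraries in FPKM as deposited. After rescaling WT mock 3, at 33.3, fell just below the highest WT hrcC- library, at 33.4, so that the groups overlapped. The log2 fold change was -0.51 (SE 0.21, adjusted p = 0.234, limma). PAB8 stood at 27.1, 25.4 and 24.1 FPKM in the libraries labelled WT mock, at 25.2, 28.5 and 22.5 in Atg3bp1 mock, at 21.3, 21.01 and 16.9 in WT hrcC- and at 17.2, 17.1 and 15.2 in Atg3bp1 hrcC-. PAB8 is the third of the widely expressed poly(A)-binding proteins, and its change under the label WT was -0.35 (SE 0.17, adjusted p = 0.309, limma). PAB2 stood at 92.7, 177 and 125 FPKM in the libraries labelled WT mock, at 96.5, 115 and 104 in Atg3bp1 mock, at 169, 98.2 and 96.7 in WT hrcC- and at 106, 94.5 and 99.3 in Atg3bp1 hrcC-. PAB2 varied most under the label WT, where its lowest and its highest library in FPKM as deposited both lay in mock. After rescaling its lowest WT library was WT hrcC- 3, at 95.9. Its change was -0.11 (SE 0.21, adjusted p = 0.8404, limma), with a 95% interval -0.57 to 0.35.

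RBP47A stood at 19.3, 28.6 and 22.7 FPKM in the libraries labelled WT mock, at 29.2, 27.5 and 19.8 in Atg3bp1 mock, at 23.2, 18.4 and 18.9 in WT hrcC- and at 16.3, 18.9 and 15.2 in Atg3bp1 hrcC-. After rescaling the WT libraries did not overlap, at 21.1, 25.8 and 19.7 against 19.4, 19.3 and 18.7 rescaled FPKM, although the change was small, -0.20 (SE 0.16, adjusted p = 0.584, limma). RBP47A was the single member whose WT libraries did not overlap, and it was lower. Of all tested genes 8.70% were lower and 8.54% higher without overlap. RBP47B stood at 10.97, 13.6 and 16.5 FPKM in the libraries labelled WT mock, at 11.1, 13.3 and 8.83 in Atg3bp1 mock, at 14.6, 8.44 and 9.06 in WT hrcC- and at 8.81, 7.903 and 8.01 in Atg3bp1 hrcC-. For RBP47B the change was -0.34 (SE 0.17, adjusted p = 0.331, limma), with WT hrcC- 1 at the level of the mock libraries.

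UBP1C stood at 12.1, 16.4 and 16.4 FPKM in the libraries labelled WT mock, at 10.2, 11.3 and 10.8 in Atg3bp1 mock, at 29.1, 13.5 and 15.5 in WT hrcC- and at 16.3, 13.02 and 13.2 in Atg3bp1 hrcC-. UBP1 proteins bind U-rich stretches of mRNA, and UBP1C is known for holding back mRNAs from translation under low oxygen. Its change under the label WT was 0.29 (SE 0.19, adjusted p = 0.483, limma), and WT hrcC- 1 was far above the other libraries of its group. UBP1A stood at 18.6, 25.9 and 24.6 FPKM in the libraries labelled WT mock, at 15.1, 16.3 and 17.8 in Atg3bp1 mock, at 28.6, 15.3 and 16.1 in WT hrcC- and at 20.4, 14.9 and 20.1 in Atg3bp1 hrcC-. UBP1B stood at 15.8, 14.1 and 10.7 FPKM in the libraries labelled WT mock, at 9.29, 7.24 and 6.83 in Atg3bp1 mock, at 15.2, 11.99 and 11.6 in WT hrcC- and at 8.53, 12.2 and 9.19 in Atg3bp1 hrcC-. UBP1A changed by -0.23 (SE 0.21, adjusted p = 0.622, limma) and UBP1B by -0.05 (SE 0.21, adjusted p = 0.937, limma), both with overlapping groups. TSN1 and TSN2 encode nucleases with a Tudor domain that are found in stress granules and processing bodies. They ranged from 10.3 to 19.1 FPKM and from 5.52 to 9.64 FPKM over the 12 libraries. Their changes under the label WT were 0.00 (SE 0.19, adjusted p = 0.999, limma) and 0.11 (SE 0.23, adjusted p = 0.855, limma).

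Under the label Atg3bp1 the response to Pst hrcC- was likewise below the threshold for all 10 genes, though more of them had libraries that did not overlap. With limma 0 of 10 were called, beside 3.02% of all tested genes higher and 0.985% lower. At an unadjusted p of 0.05, 3 were lower and 0 higher. PAB8 changed by -0.56 (SE 0.17, adjusted p = 0.106, limma), RBP47A by -0.53 (SE 0.16, adjusted p = 0.1101, limma) and PAB4 by -0.59 (SE 0.21, adjusted p = 0.193, limma). After rescaling, PAB8 stood at 25.5, 28.4 and 24.95 in mock against 17.7, 17.3 and 17.5 after hrcC-. The libraries of RBP47A, RBP47B, PAB4 and PAB8 were lower without overlap, 4 of 10, beside 17.5% of all tested genes. UBP1C was the single member higher without overlap, beside 11.7%, and it changed by 0.40 (SE 0.19, adjusted p = 0.372, limma). The members' median was 0.02, with 5 above and 5 below 0, and that of all tested genes -0.07. The 95% intervals of 9 members lay within a 2-fold change, the exception being PAB4, with a 95% interval -1.06 to -0.12. When the 2 Atg3bp1 groups were fitted alone, PAB4 and PAB8 passed the threshold (adjusted p = 0.0262 and 0.0282, limma), and PAB8 also did with the high scaling factors as a term (adjusted p = 0.0426, limma).

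**Figure D2:**
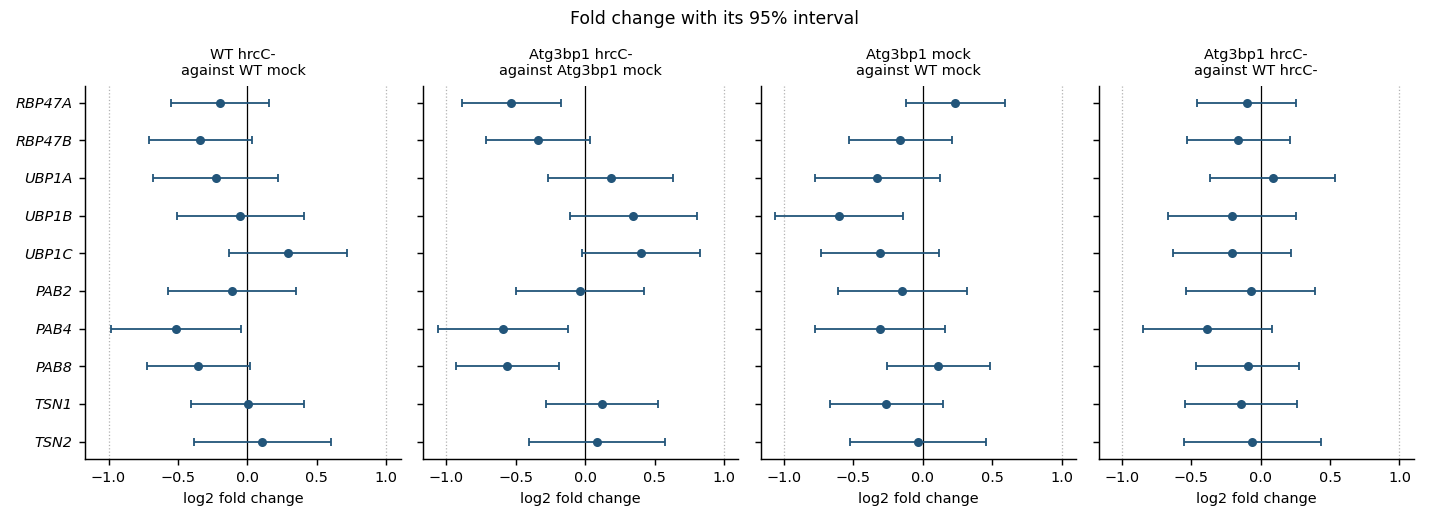
Log2 fold change (horizontal axes) of each of the 10 genes with its 95% interval from limma, for the 4 comparisons between groups; dotted lines mark a 2-fold change. PAB4 lies below 0 in all 4 panels, at -0.51, -0.59, -0.31 and -0.38, and no gene passed an adjusted p of 0.05 in any panel.

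The next comparisons asked whether the genotype labels differed in these genes. In mock, 0 of 10 were called by limma, beside 1.14% of all tested genes higher and 0.239% lower. At an unadjusted p of 0.05, 1 was lower, UBP1B, at -0.60 (SE 0.21, adjusted p = 0.136, limma). Its rescaled values were 17.3, 12.7 and 9.29 under the label WT and 9.42, 7.22 and 7.57 under the label Atg3bp1, and they overlapped because WT mock 3 was below Atg3bp1 mock 1. Between mock libraries of the same replicate number UBP1B was lower under the label Atg3bp1 in 3 of 3 pairs, as were UBP1A, UBP1C, PAB4 and TSN1. That is 5 of 10 members, beside 25.0% of all tested genes, and 1 member, RBP47A, was higher in 3 of 3, beside 24.6%. UBP1A and UBP1C were lower under the label Atg3bp1 without overlap, 2 of 10, beside 12.3% of all tested genes. No member was higher without overlap, beside 15.4%. UBP1C stood at 13.3, 14.8 and 14.2 rescaled FPKM under the label WT and 10.3, 11.2 and 11.96 under the label Atg3bp1, a change of -0.31 (SE 0.19, adjusted p = 0.378, limma). UBP1A changed by -0.33 (SE 0.21, adjusted p = 0.378, limma). All 3 UBP1 genes had negative values in mock, and none passed the test. In all, 8 of 10 members had negative values, beside 51.5% of all tested genes. WT mock 2 and WT mock 3 had high scaling factors. Within groups such libraries stood higher by 0.34 for UBP1A and 0.40 for UBP1C. Over the alternatives the mock difference ran from -0.45 to -0.10 for UBP1A and from -0.43 to -0.04 for UBP1C. The cause of this range was not tested. The 95% intervals of 9 members lay within a 2-fold change, the exception being UBP1B (95% interval -1.06 to -0.14).

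After hrcC-, 0 of 10 differed between the labels with limma, beside 0.00583% of all tested genes in each direction, and 0 had an unadjusted p of at most 0.05. The smallest adjusted p was that of PAB4, at -0.38 (SE 0.21, adjusted p = 0.932, limma). The member changes ran from -0.38 to 0.09, and every 95% interval lay within a 2-fold change. No member's libraries were without overlap, beside 5.20% of all tested genes higher and 6.01% lower. The difference between the 2 responses, the interaction of genotype label and treatment, was called by limma for 0 of 10 members and for 0% of all tested genes in either direction. At an unadjusted p of 0.05 it was 0 members as well. It ran from -0.33 in RBP47A to 0.41 in UBP1A, and the smallest adjusted p was 0.991. For 8 of 10 members its 95% interval lay within a 2-fold change; for UBP1A it was -0.221 to 1.049 and for UBP1B -0.252 to 1.047. In none of the 5 comparisons did a member reach an adjusted p of 0.05 together with a 2-fold change.

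The lack of a called interaction does not show that the labels responded alike. The interval of the interaction lay within a 2-fold change for only 54.7% of all tested genes. The response was also averaged over both labels in the same fit, a comparison added after the data had been seen. In it PAB4 and PAB8 fell. PAB4 changed by -0.55 (SE 0.15, adjusted p = 0.0399, limma) and PAB8 by -0.46 (SE 0.12, adjusted p = 0.03303, limma), which is 0.682 and 0.729 times the mock level. Thus 2 of 10 members were called lower, beside 3.58% of all tested genes, and 0 were called higher, beside 5.82%. RBP47A, at -0.36 (SE 0.12, adjusted p = 0.0719, limma), and RBP47B, at -0.34 (SE 0.12, adjusted p = 0.108, limma), had negative values that missed the threshold, and UBP1C a positive one, at 0.35 (SE 0.14, adjusted p = 0.151, limma). PAB2, the most abundant of the poly(A)-binding proteins, changed by -0.07 (SE 0.15, adjusted p = 0.835, limma), with a 95% interval -0.40 to 0.25. The others were UBP1A at -0.02, UBP1B at 0.15, TSN1 at 0.06 and TSN2 at 0.10, with adjusted p from 0.626 to 0.956. The members' median was -0.05 and that of all tested genes -0.07.

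Both calls were near the threshold. Leaving out any of the 3 Atg3bp1 mock libraries, any of the 3 Atg3bp1 hrcC- libraries or WT hrcC- 3, that is 7 of the 12 libraries in turn, ended both, as did median-ratio scaling, while the values stayed between -0.63 and -0.43 for PAB4 and between -0.51 and -0.39 for PAB8 in all alternatives. PAB4 was called in 15 of the 23 alternatives that were fitted and PAB8 in 13. With the replicate number as a block PAB8 missed the threshold (adjusted p = 0.0549 over all libraries and 0.0522 within each treatment, limma). Without WT hrcC- 1, RBP47B was called as well (-0.41, adjusted p = 0.0369, limma), and with the high scaling factors as a term UBP1C was called higher (0.41, adjusted p = 0.0274, limma).

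The 4 root markers had negative values in the same comparison, with a median of -0.46, as had 3 of the 4 shoot markers, and none of these 8 was called. Their part in the result was not tested. Averaged over both treatments, Atg3bp1 against WT gave 0 of 10 members with limma, beside 1.63% of all tested genes higher and 0.565% lower, and 2 at an unadjusted p of 0.05. These were UBP1B, at -0.40 (SE 0.15, adjusted p = 0.147, limma), and PAB4, at -0.35 (SE 0.15, adjusted p = 0.212, limma).

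The 250 bases before the annotated starts of PAB4 and PAB8 are shown because both were called lower in the averaged response. They were searched for elements that are common before plant genes of the translation machinery, the telo box (AAACCCTA) and the site II element (TGGGCC or TGGGCT), on both strands. Capitals mark a match. The window of PAB4 is chr2:9942665-9942914 and that of PAB8 is chr1:18416224-18416473, both on the plus strand of TAIR10.1 as given by RefSeq.
PAB4: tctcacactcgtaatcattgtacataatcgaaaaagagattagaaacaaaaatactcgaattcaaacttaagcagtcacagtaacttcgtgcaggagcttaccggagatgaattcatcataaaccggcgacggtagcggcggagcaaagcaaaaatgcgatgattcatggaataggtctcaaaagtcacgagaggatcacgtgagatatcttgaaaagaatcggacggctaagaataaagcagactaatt
PAB8: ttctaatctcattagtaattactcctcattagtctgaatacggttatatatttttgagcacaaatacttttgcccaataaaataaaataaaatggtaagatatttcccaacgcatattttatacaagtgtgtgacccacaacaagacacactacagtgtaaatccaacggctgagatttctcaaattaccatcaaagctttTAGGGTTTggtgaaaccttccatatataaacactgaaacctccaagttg
PAB8 held 1 telo box and no site II element, and PAB4 held neither. The window of PAB4 overlaps the neighbouring gene AT2G23348. Among the 10 members, 2 windows held a telo box, those of PAB8 and RBP47B, beside 4.49% of 27443 protein-coding genes. A site II element stood in 2, those of UBP1A and UBP1B, beside 19.2%, and the window of UBP1B overlaps the neighbouring gene AT1G17380. These matches describe the letters of the windows only.

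Ratios of paralogs within a library do not depend on the scaling of the libraries. The order of the paralogs was stable. RBP47A was above RBP47B, UBP1A above UBP1B, PAB2 above PAB4, PAB4 above PAB8 and TSN1 above TSN2 in 12 of 12 libraries. UBP1A was above UBP1C in 11 of 12, and UBP1B was above UBP1C in 1 of 12. The ratio was tested against treatment and against genotype label by two-sided exact permutation tests, 16 tests adjusted together, in which the smallest p that the 400 assignments allow is 0.005. None passed an adjusted p of 0.05, but a lone ratio could not have passed, since the smallest p gives an adjusted p of 0.08 unless other ratios reach it too.

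The ratio of PAB4 to PAB8 was 1.99, 1.63 and 1.596 in WT mock, 1.34, 1.21 and 1.298 in Atg3bp1 mock, 1.74, 1.52 and 1.41 in WT hrcC- and 1.23, 1.39 and 1.17 in Atg3bp1 hrcC-. It was lower in the 6 libraries labelled Atg3bp1 than in the 6 labelled WT, without overlap within either treatment. The difference was -0.37 on the log2 scale, with an exact permutation p of 0.005 (n = 6 and 6), the smallest possible, and an adjusted p of 0.08. The ratio of UBP1A to UBP1C was 1.53, 1.58 and 1.4997 in WT mock, 1.49, 1.45 and 1.65 in Atg3bp1 mock, 0.982, 1.13 and 1.04 in WT hrcC- and 1.25, 1.15 and 1.53 in Atg3bp1 hrcC-. The difference between hrcC- and mock was -0.39 on the log2 scale (exact permutation p = 0.015, adjusted p = 0.12, n = 6 and 6). Under the label WT the treated and mock libraries did not overlap, while under the label Atg3bp1 the library Atg3bp1 hrcC- 3 lay among the mock libraries.

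The ratio of PAB2 to PAB4 averaged 3.05 in mock and 4.31 after hrcC-, as geometric means of 6 libraries each. The difference was 0.50 on the log2 scale (exact permutation p = 0.035, adjusted p = 0.187). For PAB2 to PAB8 the means were 4.55 and 6.02 and the difference 0.40 (exact permutation p = 0.065, adjusted p = 0.26). Both ratios still differed with the libraries of high scaling factors. PAB2 to PAB4 was 1.72 in WT mock 1, against 4.27 and 3.26 in WT mock 2 and 3, which had high factors. It was 4.57 in WT hrcC- 1, which had a high factor too, against 3.08 and 4.06 in WT hrcC- 2 and 3. The other ratios moved less against treatment, with adjusted p of the exact permutation tests from 0.472 to 0.965. RBP47A to RBP47B had geometric means of 1.99 in mock and 1.98 after hrcC-, and TSN1 to TSN2 of 2.07 and 2.01.

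**Figure D3:**
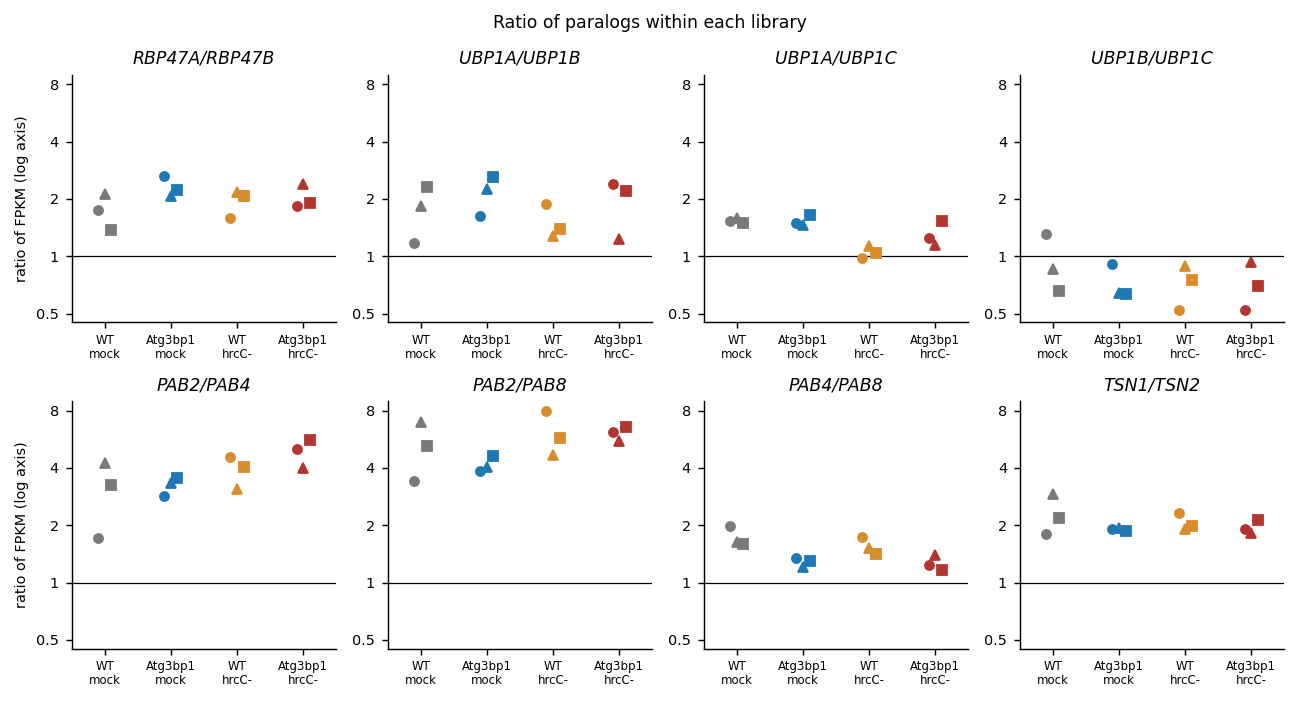
Ratio of the FPKM of 2 paralogs in each library (vertical axes, log scale) for the 8 pairs in the 4 groups; circles, triangles and squares are replicates 1, 2 and 3, and the line marks a ratio of 1. The ratio of PAB4 to PAB8 is lower in the libraries labelled Atg3bp1, and that of UBP1A to UBP1C is lower after hrcC- on average, with Atg3bp1 hrcC- 3 among the mock libraries; neither passed the test, with adjusted p of 0.08 and 0.12.

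Genes that work with the 10 members were counted in the same fit, from lists chosen by function. In the 5 comparisons between groups, 0 of the 6 RBP45 and RBP47C relatives, 0 of the 4 UBP1-associated proteins, 0 of the 11 cap-binding and initiation partners and 0 of the 12 processing-body and decay proteins were called, beside 0% to 3.51% of all tested genes higher and 0% to 0.985% lower. In the AtG3BP family, 7 of 8 genes passed the filter, and AtG3BP1 itself was the single gene called in these 5 comparisons, higher under the label Atg3bp1 in mock and after hrcC-. Averaged over both treatments, AtG3BP1 was again called higher and AT5G43960 was called lower under that label, at -0.58 (SE 0.11, adjusted p = 0.0321, limma). The latter call held in 12 of 23 alternatives. It held without WT mock 1, WT mock 3 or WT hrcC- 2, and ended without any of the 9 other libraries, with a block over all libraries (adjusted p = 0.0588, limma) and with the high scaling factors as a term (adjusted p = 0.0527, limma). These were 1 higher and 1 lower call among the 40 tested genes of the lists, beside 1.63% and 0.565% of all tested genes.

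Averaged over both labels, the response to hrcC- held 5 calls among the 40 tested genes of these lists, all lower, beside 3.58% of all tested genes called lower and 5.82% higher. RBP47C changed by -0.42 (SE 0.10, adjusted p = 0.0227, limma) and RBP47C-prime by -0.50 (SE 0.13, adjusted p = 0.0314, limma). These are close relatives of RBP47A and RBP47B, named after their values had been seen. Their coding sequences are 94.7% identical, and 11% of the 100-base windows of RBP47C match RBP47C-prime within 2 mismatches, so their separate levels are uncertain. In the AtG3BP family, AT1G13730 changed by -0.58 (SE 0.12, adjusted p = 0.00674, limma), AT2G03640 by -0.48 (SE 0.13, adjusted p = 0.0432, limma) and AT5G43960 by -0.40 (SE 0.11, adjusted p = 0.0484, limma). Over the same 23 alternatives AT1G13730 was called in 23, RBP47C in 17, RBP47C-prime in 15, AT2G03640 in 9 and AT5G43960 in 6, with negative values in each. The call of RBP47C ended without WT mock 2, Atg3bp1 mock 3, WT hrcC- 3 or Atg3bp1 hrcC- 2. That of RBP47C-prime ended without WT mock 2, any Atg3bp1 mock library, WT hrcC- 3, Atg3bp1 hrcC- 1 or Atg3bp1 hrcC- 3. The call of AT2G03640 held without WT mock 1 or WT hrcC- 1 and that of AT5G43960 without WT mock 3 or WT hrcC- 1, and each ended without any of the 10 other libraries. With the replicate number as a block over all libraries both also missed the threshold (adjusted p = 0.0678 and 0.0757, limma).

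The partners of the poly(A)-binding proteins at the cap had no call in that averaged response. Of the 11, 2 had positive values, the median was -0.36 and the smallest adjusted p was 0.0516, that of EIFISO4G1, a scaffold of the initiation complex. The processing-body and decay proteins had a median of -0.12, and the UBP1-associated proteins of -0.01. Against the median of all tested genes, -0.07, these are descriptions without a test of the lists.

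**Figure D4:**
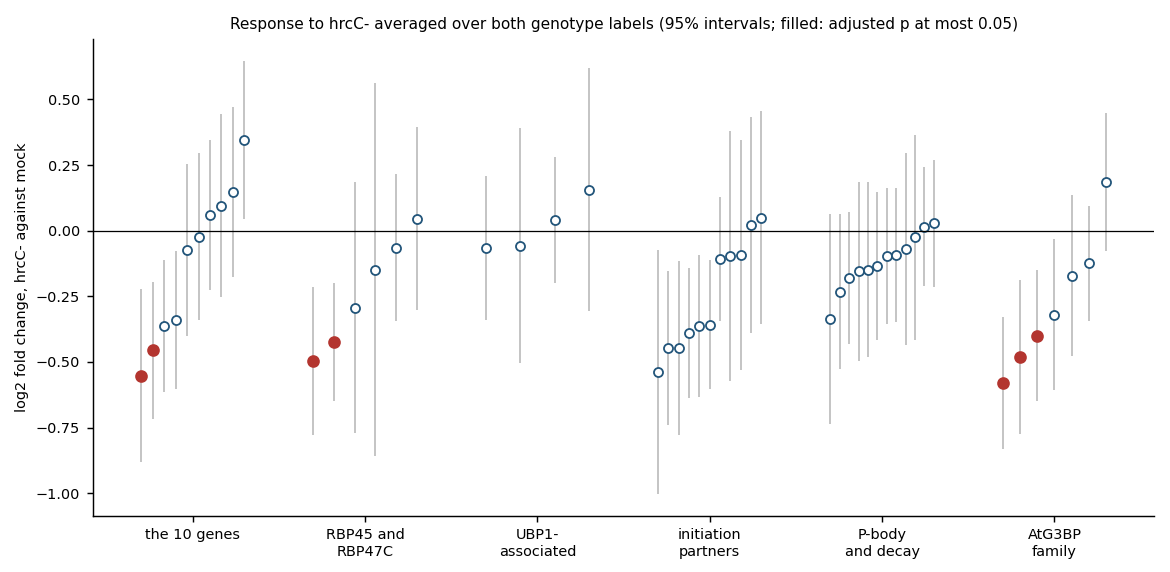
Log2 fold change for hrcC- against mock, averaged over both genotype labels (vertical axis), with 95% intervals from limma, for the 10 genes and for 5 lists of related genes in order of their values; filled points have an adjusted p of at most 0.05. The filled points are PAB4 and PAB8, RBP47C-prime and RBP47C, and AT1G13730, AT2G03640 and AT5G43960 of the AtG3BP family.

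Across the 12 libraries, the members did not share a single pattern. On the log2 scale of rescaled FPKM, the closest pairs were UBP1B with TSN1 (Pearson r = 0.88), PAB4 with PAB8 (0.84), RBP47A with PAB8 (0.73), UBP1A with PAB2 (0.73) and TSN1 with TSN2 (0.72). The most opposed were UBP1C with PAB8 and PAB2 with TSN2, both at -0.64. Among all tested genes outside the 10, the one most like PAB4 was AT1G06850 (bZIP52, r = 0.969), and most like PAB8 was AT4G30110 (HMA2, r = 0.952). For PAB2 it was AT5G60160 (r = 0.942), for RBP47A AT5G24920 (GDU5, r = 0.945) and for RBP47B AT1G13590 (PSK1, r = 0.957). For UBP1A, UBP1B and UBP1C these were AT5G09600 (SDH3-1, r = 0.909), AT1G12750 (RBL6, r = 0.945) and AT1G76020 (r = 0.956). For TSN1 it was AT1G30120 (PDH-E1 BETA, r = 0.943) and for TSN2 AT5G24320 (r = 0.968). These values describe 12 libraries that share groups and scaling, and each is the highest r among the tested genes outside the 10.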

How the data were processed

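mRNA of 12 libraries of whole seedlings was sequenced as stranded, paired-end reads. The authors used Trimmomatic for trimming and TopHat for alignment to TAIR10, and deposited the FPKM of each gene and library from Cufflinks. No read counts were used, the number of reads behind each single value is unknown, and no counting interval is given. FPKM carry a library-wide scaling that a few abundant transcripts can shift.

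Columns were assigned to groups by their names and labels alone. Each library was rescaled to a common upper quartile, and log2 of FPKM plus 1 was fitted, with 4 groups, for the 17158 genes that averaged 1 FPKM or more, in limma 3.58.1 (R 4.3.3) with a trend of the prior variance. Benjamini-Hochberg adjustment ran over all tested genes in each comparison, and a gene was called at an adjusted p of at most 0.05. Ratios were tested by exact permutation in Python 3.11.15 (numpy 2.4.6, pandas 2.3.3). Both tests were tried on simulated data. Figures were drawn with matplotlib 3.10.9, and coding sequences were aligned with Biopython 1.88. Of the 27371 identifiers, 26703 were found in the TAIR10.1 gene table of RefSeq, among them all 64 of the lists.

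All 10 members are named, and from the other lists the genes called in any of the 5 comparisons, up to 3 a list, and the most alike gene of each member. Members and lists were chosen with earlier results of these data known. The averaged comparisons, and the genes named from them, were chosen after seeing the data. The replicate numbers were taken as pairs among the mock libraries. Their deviations from the group means correlated at 0.37, 0.102 and 0.31 across genes for replicates 1, 2 and 3. Each was above 0.1, replicate 2 only just, so the pairing is weakly based. After hrcC- the correlations were 0.04, 0.43 and 0.105. Replicate 1 missed 0.1, and the numbers were not taken as pairs there. Between WT hrcC- and WT mock the correlations were -0.40, -0.42 and 0.002. The alternatives were other scalings, pseudocounts and filters, no trend, a replicate block, the compared groups alone, a term for high scaling factors, each library left out and an unadjusted p.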

Additional observations from a re-analysis of the deposited data

How the results depend on the processing

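In the 5 comparisons between groups, no member was called under any scaling, pseudocount, filter, replicate block or omitted library. For the response under the label Atg3bp1, 1 member was called with the high scaling factors as a term and 2 when the 2 groups were fitted alone, where the fit holds fewer libraries. An unadjusted p of 0.05 gave 1 member for the response under WT, 3 for that under Atg3bp1 and 1 for the labels in mock. It gave 5 for the averaged response and 2 for the averaged labels. The share of all tested genes at that p was not counted, so these counts have no background beside them. The averaged response held 2 calls. It held 0 with median-ratio scaling, and 0 to 3 with 1 library left out. With a replicate block it held 1 call, PAB4, whether the block ran over all libraries or within each treatment, and the replicate block changed no other count of members called. Among the list genes, the block over all libraries ended both calls of AT5G43960 and that of AT2G03640, and the block within each treatment that of AT2G03640 alone. The ratios held 0 calls in each alternative, where a lone ratio could not pass. The cause of these changes was not tested. Of 2083 values of single genes and ratios under an alternative, 93 changed sign, all without a call on either side, and the largest of the values concerned was 0.21 on the log2 scale. Without rescaling the median of all genes lay at -0.12 between the labels in mock and at -0.15 after hrcC-. Groups of 3 libraries and FPKM without counts limit what could be detected.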
